A study of Mus musculus with 168 samples.

Results

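The genes described here encode the receptors on which glutamate acts in the mouse brain, the auxiliary subunits that travel with AMPA receptors, and the transporters that load glutamate into vesicles or clear it from the synapse. Of 36 genes listed by name, 35 had a probe set annotated to that gene alone, out of 18193 genes with a probe set of their own. For each of them the probe set with the highest mean over all arrays was used. Grin1, the obligatory NMDA receptor subunit, was not analysed here, because no probe set was annotated to it alone. The analysed genes were 4 AMPA receptor subunits, 8 AMPA receptor auxiliary subunits, 5 NMDA receptor subunits, 5 kainate receptor subunits, 1 delta receptor subunit, 6 metabotropic receptors, 4 plasma membrane transporters and 2 vesicular transporters.

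The arrays profiled total RNA from 7 regions of the brain of male C57BL/6 mice aged 8 to 9 weeks, with 3 arrays for each of 56 combinations of region and time. Hypoxia was breathing 8% oxygen for 1 h (H1) or 3 h (H3), and reoxygenation was a return to room air for 1, 3, 6, 12 or 24 h (R1, R3, R6, R12 and R24) after the full 3 h. The control group, 0hr, breathed room air throughout, and by the study's methods its mice spent 3 h in the same chambers and then 24 h in the home cage. The methods give 3 mice for each time, 24 in all, each dissected into the 7 regions, so arrays of different regions at 1 time share mice, and the labels do not say which arrays came from the same mouse. Since every control mouse was killed 24 h after its sham session, an effect of hypoxia at the earlier times and one of handling or hour of the day cannot be told apart.

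Glutamate carries most fast excitation in the brain. AMPA, NMDA and kainate receptors are ion channels assembled from 4 subunits, and the subunit mixture sets how long they open and whether calcium passes, while the metabotropic receptors act through G proteins. Auxiliary subunits bring AMPA receptors to the synapse and slow their closing. Transporters in astrocytes and neurons remove glutamate from the cleft, which matters in low oxygen because a shortage of ATP lets glutamate accumulate.

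The markers listed for a region were mostly highest in the dissection of that name. The lists were chosen with earlier results of these data known, so the counts are given as a description. Of the markers listed for each region and analysed, the highest mean lay in the labelled region for 4 of 5 cortical, 5 of 5 hippocampal, 5 of 5 striatal, 6 of 6 thalamic, 6 of 6 midbrain, 7 of 8 pontine and medullary and 7 of 7 cerebellar genes. These counts include Tdo2 in hippocampus and Hoxa5 in pons and medulla. Neither passed an F-test over the 7 regions (adjusted p = 0.0812 and 0.617). Pairs of arrays from 1 group correlated at r of 0.972 to 0.985 over all probe sets on the log2 scale, and 23.3% to 30.2% of the probe sets on an array lay below an intensity of 16.

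In control mice these genes differed widely between regions. In limma's F-test over the 7 regions, 32 of 35 genes passed at a Benjamini-Hochberg adjusted p under 0.05, when 39.8% of all 45037 probe sets did. The gap between the highest and the lowest region was a median of 1.97 on the scale of log2(intensity + 16), against 0.533 over all probe sets. It exceeded 1 for 30 genes, 2 for 17 and 3 for 6, and among all probe sets 17.1% exceeded 1 and 3.79% exceeded 2. The probe sets compared were of unlike intensity. Of the 35, 6 had a mean under 100, while the median probe set of an array lay at 39.6 to 51.8. The added 16 narrows gaps at low intensity, and no comparison matched for intensity was made. In pieces of tissue such as these, fewer cells of a type and less RNA per cell cannot be told apart.

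**Figure D1:**
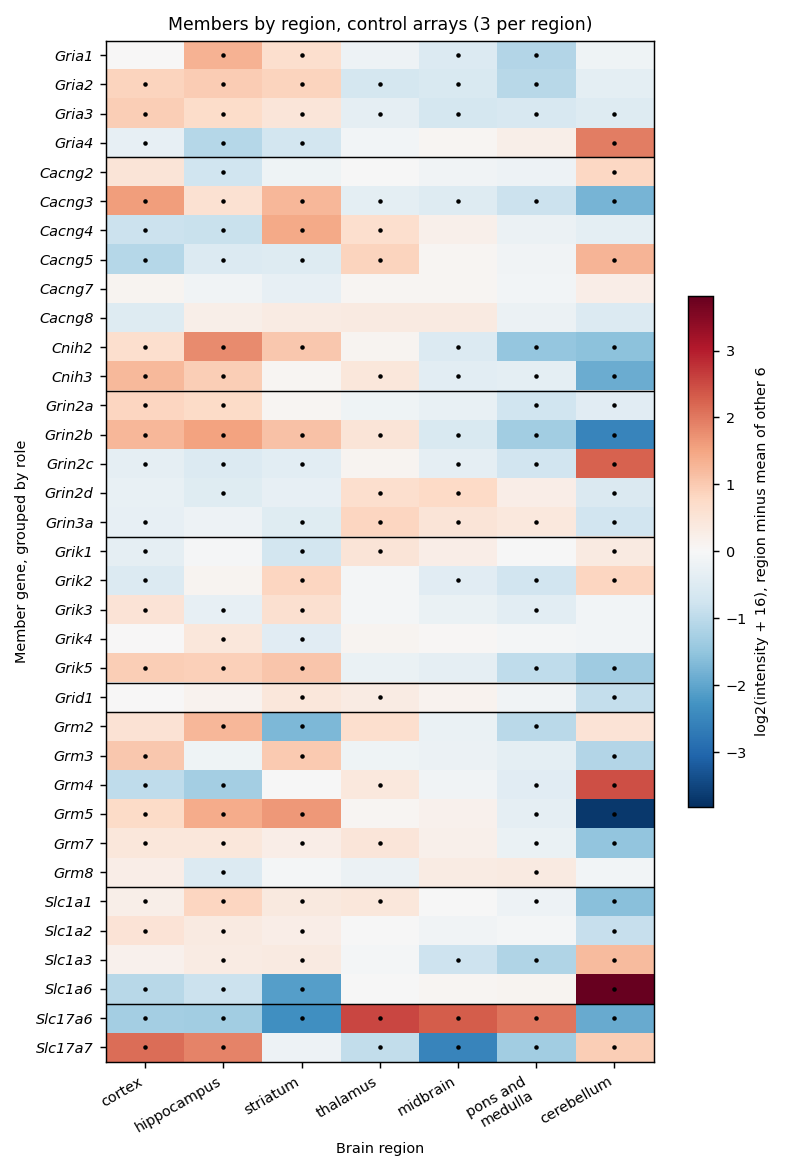
Difference of each region from the mean of the other 6 (columns) for the 35 genes (rows, lines between roles), on the log2(intensity + 16) scale in the 21 control arrays. Red is above and blue below; black dots mark an adjusted p under 0.05. The deepest colours are Slc1a6 in the cerebellum (3.81) and Grm5 in the cerebellum (-3.67).

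Each region was then set against the mean of the other 6. In cerebral cortex 15 genes lay above that mean (7.78% of all probe sets did) and 10 below (9.5%). In hippocampus 17 lay above (6.39%) and 11 below (6.69%), and in striatum 17 above (9.05%) and 9 below (10.2%). The thalamus had 12 above (4.78%) and 4 below (3.99%). The midbrain had 3 above (6.4%) and 11 below (5.21%), and pons and medulla 3 above (9.42%) and 19 below (8.79%). In cerebellum 10 lay above (15.7%) and 16 below (13.5%). The cerebellum held the lowest mean for 14 genes and the highest for 8. Forebrain regions, namely cortex, hippocampus and striatum, held the highest mean for 20 genes. The shares of all probe sets with an extreme in these regions were not computed. Over all probe sets, too, cerebellum had the largest shares above and below the other regions (15.7% and 13.5%).

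Among the AMPA receptor subunits, which carry the fast excitatory current, Gria1 was highest in hippocampus. Its intensity there was 1784, 1889 and 2116 on the 3 control arrays, against 455, 507 and 370 in pons and medulla. All 3 hippocampal arrays exceeded every array of the other regions. The hippocampus lay 1.33 (SE 0.10) above the mean of the other 6 on the log2 scale (adjusted p = 2.84e-08). The order ran from hippocampus through striatum to cortex, each step passing the test, while cortex, cerebellum and thalamus did not differ from their neighbours in the order (adjusted p = 0.439 and 0.979).

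Gria2, whose edited form keeps calcium out of the channel, separated the regions into a forebrain group and the rest. Cortex, hippocampus and striatum had means of 2702, 2867 and 2692, and the steps between them gave adjusted p = 0.911 and 0.991. From striatum to the next region, cerebellum at 1293, the step passed (adjusted p = 0.000977). Pons and medulla came last with 1074, 1118 and 530, so replicate 3 lay well under the other pair. A further probe set for Gria2, the dimmest of its set, of mean intensity 554, had its highest mean in cerebellum, and its region means correlated with those of the first at 0.743.

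Gria3 was likewise highest in the forebrain, in the order cortex, hippocampus and striatum, with 648 ± 70.5 (SD, n = 3) in cortex and 240 ± 23.4 in midbrain, and its gap of 1.37 was the narrowest of the 4 subunits. Gria4 ran the other way. The cerebellar arrays gave 1840, 1696 and 1711 and those of hippocampus 270, 256 and 289. No cerebellar array overlapped any other region, and the gap of 2.62 (SE 0.11, adjusted p = 1.81e-12) was the widest among the AMPA subunits. The second brightest probe set of each of the 4 genes put the highest level in the same region.

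The AMPA receptor auxiliary subunits divided by region more sharply. Cacng3, a transmembrane AMPA receptor regulatory protein (TARP), gave 531, 467 and 486 in cortex, 424, 435 and 346 in striatum, and 53.5, 48.6 and 54.4 in cerebellum. The 3 cerebellar arrays were below all others and the gap was 2.90 (SE 0.10, adjusted p = 2.66e-13), the widest of the 8. Cnih2, a cornichon protein that slows AMPA receptor closing, stood at 1514, 1188 and 1197 in hippocampus against 155, 155 and 178 in cerebellum. It lay 1.80 (SE 0.11) above the other regions in hippocampus (adjusted p = 2.11e-09). Cnih3 shared the low cerebellar level, 30.8, 22.0 and 20.7, with its highest values in cortex at 232, 245 and 260.

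Other TARPs peaked elsewhere. Cacng4 was highest in striatum with 790, 853 and 579, above every array of the other regions, and lay 1.44 (SE 0.15) above their mean there (adjusted p = 7.99e-07). Cacng5 was highest in cerebellum, at 444, 394 and 387, and lowest in cortex, at 86.1, 77.9 and 93.4. Cacng2, or stargazin, the loss of which in the stargazer mouse removes AMPA receptors from cerebellar granule cells, also peaked in cerebellum, where its 625, 631 and 646 exceeded all other arrays.

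Cacng7 and Cacng8 did not pass between regions. Cacng7 lay between means of 190 and 254, with an adjusted p of 0.691, and its gap of 0.50 was the narrowest of all the genes. Cacng8 was dim everywhere: in cortex its arrays gave 7.04, 12.7 and 40.5, and its adjusted p was 0.0796. A second probe set for each of these genes correlated with the first at only 0.508 and 0.306 over the 7 region means, and that of Cacng8 did pass between regions (adjusted p = 0.0143), with its highest mean in hippocampus.

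NMDA receptors need presynaptic glutamate and a depolarised membrane at the same time, and their second type of subunit changes with age and region. Grin2b, the subunit with slow closing, had the widest gap of the 5 at 3.48 (SE 0.12, adjusted p = 1.59e-13). The hippocampus gave 837, 770 and 665 and the cerebellum 47.8, 57.3 and 53.8. Cortex and striatum came next, then thalamus, followed by midbrain and by pons and medulla. Each step from striatum down to cerebellum passed the test, with adjusted p from 2.37e-06 to 0.00533.

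Grin2c was its counterpart in cerebellum. The cerebellar arrays read 767, 621 and 566, and the highest reading anywhere else was 184 in thalamus. The difference of the cerebellum from the other 6 was 2.25 (SE 0.09, adjusted p = 9.72e-13) for Grin2c. For Grin2b it was -2.52 (SE 0.09, adjusted p = 2.52e-13). Grin2c is the subunit that mature cerebellar granule cells take up as they lose Grin2b.

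The other NMDA receptor subunits had smaller gaps. Grin2a was dim on this array, with 74.5, 78.6 and 69.1 in cortex and 24.0, 14.7 and 19.5 in pons and medulla. Grin2d was highest in midbrain at 365 ± 33.0 and lowest in cerebellum at 159 ± 15.8, and its gap of 1.12 was the narrowest of the 5. Grin3a, which lowers calcium entry, was highest in thalamus with 211, 212 and 229, above all other arrays, and lay 0.81 (SE 0.07) above the other 6 there (adjusted p = 4.8e-07).

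**Figure D2:**
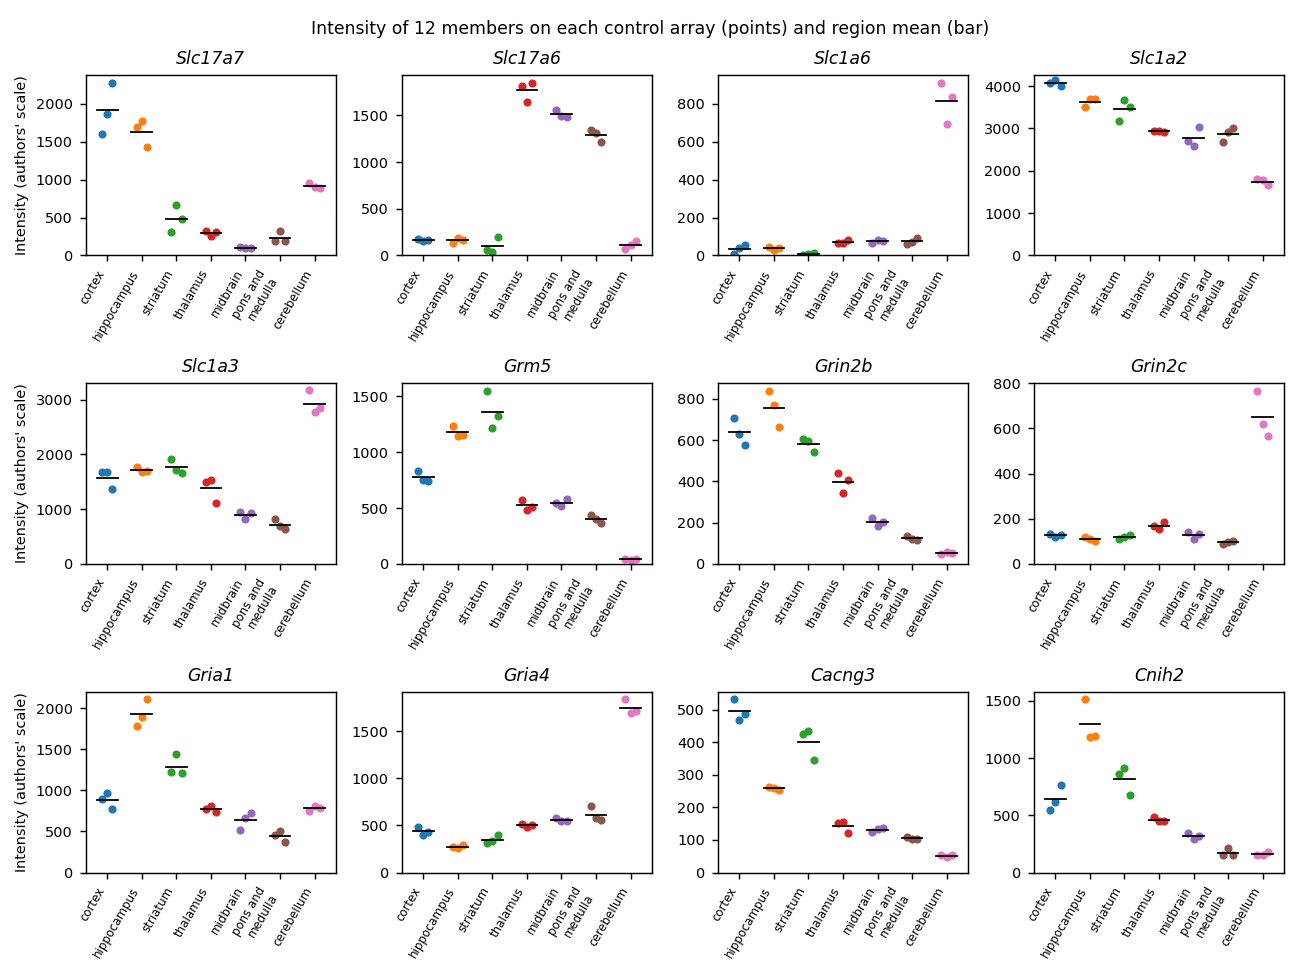
Intensity on the authors' linear scale (vertical axes, each from 0) of 12 genes on the 3 control arrays of each region (points) with the mean (bar). Slc17a7 and Slc17a6 are high in different regions, and Slc1a6, Grin2c and Gria4 stand out in cerebellum, where Grm5, Grin2b, Cacng3 and Slc1a2 are lowest.

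Kainate receptors work on both sides of the synapse. Grik5, which joins other subunits to raise their affinity, had the widest gap at 2.08: striatum read 659, 668 and 615 and cerebellum 179, 108 and 143. The 3 forebrain regions did not differ from their neighbours in the order (adjusted p = 0.812 and 0.978), and the step from hippocampus to thalamus passed (adjusted p = 0.000622). Grik2 was high in striatum and cerebellum, at 140 ± 9.74 and 138 ± 19.0, and the step from them to hippocampus passed (adjusted p = 0.00219). Grik3 was highest in striatum and cortex, at 240 and 224. Grik1 ran from 80.0 in thalamus to 32.1 in striatum.

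Grik4 did not pass the F-test, with an adjusted p of 0.0588, and its gap of 0.73 was the narrowest of the kainate subunits. Its highest mean was in hippocampus, 98.3, 88.8 and 61.5, and its lowest in striatum, 42.2, 49.0 and 37.2. The delta receptor gene Grid1, which signals by binding cerebellins and not as a glutamate-gated channel in the usual sense, was below all other arrays in cerebellum at 94.6, 83.7 and 85.5, and highest in striatum at 214 ± 19.7.

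Of the metabotropic receptors, Grm5, which couples to phospholipase C and calcium release, had the widest gap. It read 1541, 1219 and 1322 in striatum and 44.2, 39.2 and 42.7 in cerebellum. No array of another region came near the cerebellar ones, since the lowest of them was 369 in pons and medulla. The gap was 4.56 (SE 0.10, adjusted p = 2.95e-15), and the difference of cerebellum from the other 6 was -3.67 (SE 0.08, adjusted p = 6e-16).

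Grm4, which inhibits release from nerve endings, ran opposite to Grm5, with 1867, 1708 and 1571 in cerebellum against 159, 209 and 147 in hippocampus. The cerebellar arrays exceeded all others, and cerebellum lay 2.45 (SE 0.08) above the mean of the other 6 (adjusted p = 2.26e-13). Grm2 and Grm3 lower cyclic AMP, Grm2 mostly in neurons and Grm3 also in astrocytes. Grm2 was dim in striatum, at 16.1, 15.9 and 34.4, and highest in hippocampus, at 163, 189 and 269. Grm3 was high in cortex and striatum, at 676 and 667, and lowest in cerebellum, at 178.

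Grm7 and Grm8 are presynaptic receptors of the same group as Grm4. Grm7 lay between means of 222 and 350 in the other 6 regions and at 90.1, 99.9 and 98.6 in cerebellum, below every other array. Its highest region was thalamus, and thalamus, cortex, hippocampus, striatum and midbrain did not differ from their neighbours in the order (adjusted p from 0.519 to 0.972). Grm8 had the narrowest gap of the metabotropic receptors, 0.75. Its mean was 84.0 ± 6.42 in pons and medulla and, at the other end, hippocampus had 43.9 ± 7.60.

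Glutamate transporters showed opposite cerebellar values in the 2 main astrocyte genes. Slc1a2 encodes the transporter that clears most glutamate in the forebrain and Slc1a3 the one that prevails in Bergmann glia of the cerebellum. For Slc1a2 the cortex read 4071, 4150 and 3998 and the cerebellum 1795, 1772 and 1670. For Slc1a3 the cerebellum read 3177, 2767 and 2848 and pons and medulla 820, 687 and 633. The difference of cerebellum from the other 6 was -0.89 (SE 0.06, adjusted p = 3.14e-09) for Slc1a2 and 1.2 (SE 0.10, adjusted p = 2.02e-08) for Slc1a3. Beside these values, the summed intensity of 7 other astrocyte markers was 10070 to 11500 in cerebellum, 6513 to 6998 in cortex and 11720 to 12800 in pons and medulla, and their part in the differences was not tested.

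Slc1a6, the transporter of Purkinje cells, had the widest gap of all the genes. The cerebellar arrays read 909, 691 and 836, and the highest reading in any other region was 93.7 in pons and medulla. The cerebellum lay 3.81 (SE 0.21) above the other 6 (adjusted p = 9.11e-11). In striatum all 3 arrays, 4.87, 6.63 and 15.1, were below 16, so a ratio between these regions depends on the constant added before the logarithm. Slc1a1, the neuronal transporter, was highest in hippocampus at 741, 749 and 713, above all other arrays, and lowest in cerebellum at 169, 173 and 149.

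The vesicular transporters define which neurons release glutamate. In cortex Slc17a7 read 1603, 1863 and 2277, and hippocampus followed with 1690, 1776 and 1432. Its cerebellar arrays read 952, 901 and 894, while those of midbrain read 113, 97.4 and 104. Slc17a6 read 1810, 1641 and 1846 in thalamus, 1558, 1490 and 1483 in midbrain, and 1342, 1308 and 1215 in pons and medulla, with no more than 201 on any array of the other 4 regions. On the midbrain arrays the summed intensity of 6 thalamic markers was 2123 to 2369. It was 4447 to 5294 in thalamus and 305 to 312 in cortex. The part of these markers in the midbrain values, also those of Grin2d and Grin3a, was not tested. The gaps were 3.99 (SE 0.22) for Slc17a7 and 4.21 (SE 0.33) for Slc17a6. Each was above the mean of the other 6 where the other was below it in cortex, hippocampus, thalamus, midbrain, pons and medulla and cerebellum, and in striatum Slc17a6 was below (log2 difference -2.35) and Slc17a7 did not pass (adjusted p = 0.504).

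The striatal control arrays were uneven for both. Slc17a6 gave 56.6, 40.2 and 201, and all 21 later striatal arrays lay between 39.4 and 93.5. Slc17a7 gave 314, 662 and 478. On the array with 201 the summed intensity of 6 thalamic markers was 474, against 371 and 393 on the other pair and 4447 to 5294 in thalamus, and their part in the value was not tested. Without that array the counts over all the genes stayed within the range given for arrays left out in turn.

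The regional differences recurred in mice that had not been used to describe them. In the 147 arrays of the 7 later times, the difference of a region from the other 6 had the same sign as in the controls for 157 of 157 pairs of gene and region that had passed. The region with the highest mean was the same at all 7 later times for 23 of 35 genes, and the one with the lowest for 24. Over the 7 region means, the correlation with the control pattern exceeded 0.9 at all 7 times for 29 genes, and fell under 0.5 at some time for 2, Cacng7 and Cacng8. These coefficients each rest on 7 points that share an array type and a scaling, and are given as a description. How often signs and extreme regions recurred over all probe sets was not computed, so the counts are not a trait of these genes.

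**Figure D3:**
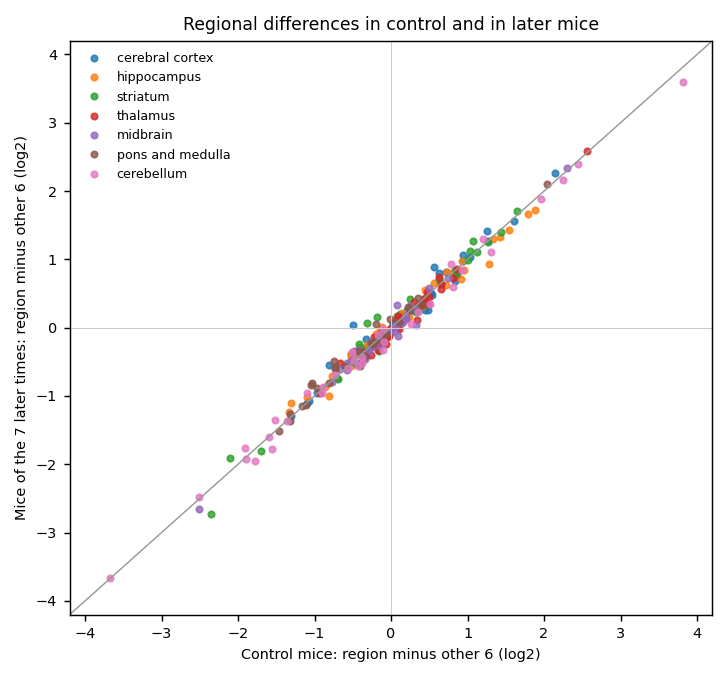
Each point is 1 of 245 pairs of gene and region. The horizontal axis is the region minus the mean of the other 6 in control mice and the vertical axis the same in the mean of the 7 later times (both log2(intensity + 16)), coloured by region with a line of equality. The 115 pairs over 0.5 from 0 in the controls all keep their sign.

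Where a gene had a further probe set, the patterns could be compared. Of 22 second probe sets, 20 passed the F-test, 17 had the same highest region as the first, and 15 had region means that correlated with it at over 0.9. Under 0.7 were 5, those of Cacng7, Cacng8, Grik1, Grik3 and Grm7. The second Grik3 probe set had a mean intensity of 4.24 over all arrays, and that of Grm7 36.9.

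Other genes of the glutamatergic synapse also differed by region, from lists chosen with earlier results of these data known. Of other glutamate receptors, auxiliary proteins and transporters 6 of 10 passed the F-test, of postsynaptic scaffolds and organisers 26 of 27, and of enzymes and transporters of glutamate and glutamine metabolism 6 of 7. Of all probe sets 39.8% passed. The 4 with the widest gaps were Cbln1 (4.94, highest in cerebellum), Nptx2 (4.11, highest in cortex), Lrrtm1 (3.87, highest in thalamus) and Cbln2 (3.82, highest in midbrain). Cbln1 encodes the cerebellin that bridges granule cell endings and delta receptors on Purkinje cells. Pick1, a scaffold that binds AMPA receptor subunits, did not pass (adjusted p = 0.635).

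With hypoxia and reoxygenation few differences passed. Against 0hr within a region, 0 of 35 genes passed in any of the 7 regions at H1, H3, R1, R3, R12 or R24 by limma with Benjamini-Hochberg adjustment. At an unadjusted p under 0.05, between 6 and 24 of the 245 pairs of gene and region did at these times, or 2.45% at H1, 5.71% at H3, 5.31% at R1, 9.8% at R3, 6.12% at R12 and 2.45% at R24. Over all probe sets the same share was 5.27%, 7.48%, 9.3%, 6.46%, 5.76% and 4.94%. At R6 it was 11.4% of the pairs and 4.88% over all. For adjusted calls at H1, the share of all probe sets called was 0.0222% in cortex, 0.0377% in hippocampus, 0.0244% in striatum, 0.0266% in thalamus, 0.0466% in midbrain, 0.0333% in pons and medulla and 0.02% in cerebellum. At H3 the shares in that order were 0.233%, 0.242%, 0.2%, 0.187%, 0.249%, 0.115% and 0.948%, and at R1 they were 0.315%, 0.322%, 0.426%, 0.389%, 0.209%, 0.113% and 1.08%. At R3 they were 0.0111%, 0.00444%, 0, 0.0178%, 0.00666%, 0.00444% and 0.0178%, and at R12 and R24 they were 0 throughout. At H3 the nearest gene to the threshold was Cacng2 in cerebellum, with 625, 631 and 646 at 0hr and 934, 799 and 861 at H3. Those arrays did not overlap, and the difference was 0.44 (SE 0.10, adjusted p = 0.0507).

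The interval of a difference within a region was typically 0.273 to either side at 95% confidence (median over pairs), so that for 203 to 215 of 245 pairs at each time, a change of 1.5-fold on the log2(intensity + 16) scale lay outside it. In the mean of the 7 regions the intervals were tighter. Those of all 35 genes lay within 1.5-fold at each of the 7 times, and at H3 those of 31 lay within 1.2-fold.

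Averaged over the regions, 1 gene passed at any time. Counts among all probe sets were 0.158% at H1, 3.36% at H3, 5.48% at R1, 0.782% at R3, 0.0422% at R6 and 0 at R12 and R24. None of the 35 genes was called at H3 or R1, where shares of this size would make few calls among 35 genes. With the replicate number as a block Grik1 passed at both (adjusted p = 0.0413 and 0.0313). These counts rest on the brightest probe set of each gene. The dimmest Slc1a3 probe set, of mean intensity 16.2, was called higher at H3 (log2 difference 0.32, adjusted p = 0.00901). The Slc1a3 probe set used gave -0.05 (adjusted p = 0.866). At H3 the estimates of the 35 probe sets used ran from -0.11 for Grik3 to 0.17 for Grik1. Of these, 23 of 35 were above 0, with a median of 0.04 against -0.01 over all probe sets. At R6 they ran from -0.44 for Grm7 to 0.17 for Cacng8, and 9 of 35 were above 0, with a median of -0.05.

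**Figure D4:**
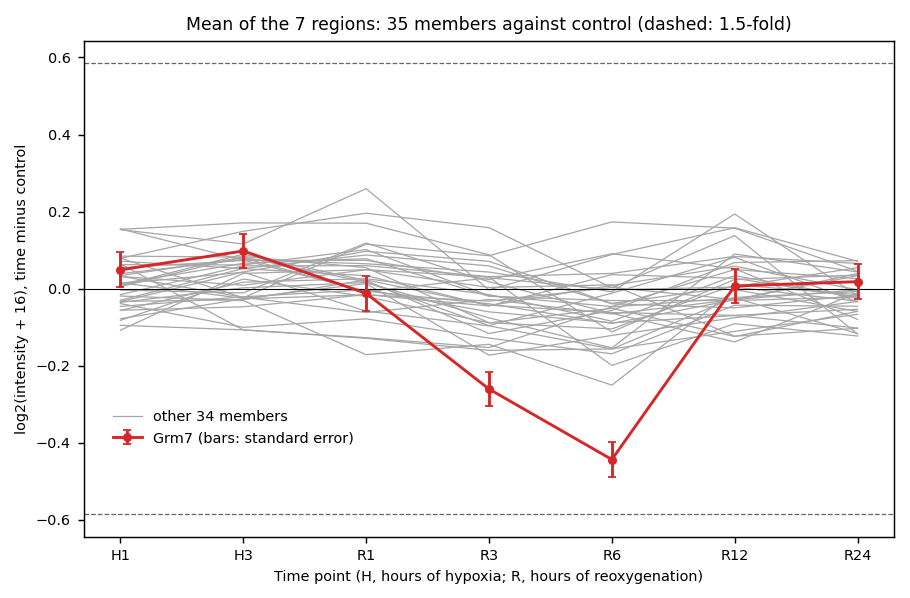
Difference from 0hr (vertical axis, log2(intensity + 16)) of the 35 genes in the mean of the 7 regions at each time (horizontal axis). Grm7 is red with bars of 1 standard error and the other 34 genes are grey; dashed lines mark 1.5-fold. Grm7 reaches -0.26 at R3 and -0.44 at R6 and is at 0.01 at R12.

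The gene called against 0hr was Grm7. In cortex its intensity was 329, 346 and 353 at 0hr, 241, 261 and 251 at R3, 208, 188 and 184 at R6, and 336, 342 and 338 at R12. In hippocampus it was 333, 348 and 335 at 0hr, 269, 234 and 272 at R3, 226, 226 and 209 at R6, and 332, 347 and 312 at R12. In both regions every R6 array lay below every control, as 4.09% of all probe sets did in cortex and 4.16% in hippocampus. The R12 arrays lay among the controls in cortex, and in hippocampus the lowest of them, 312, was under the lowest control.

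At R6 Grm7 fell by 0.78 in cortex (SE 0.09, adjusted p = 0.00437) and by 0.59 in hippocampus (SE 0.07, adjusted p = 0.0049) on the log2 scale. It was the single probe set called in each of these regions at that time, 0.00222% of all. Neither call held without replicate number 1, 2 or 3 in every group, with adjusted p of 0.337 to 0.554 in cortex and 0.411 to 0.818 in hippocampus, and estimates of -0.86 to -0.73 (cortex) and -0.62 to -0.56 (hippocampus). The call in cortex was also lost without control replicate 2 or 3 (adjusted p = 0.0501 and 0.0586), without R6 replicate 2 or 3 (0.0605 and 0.0645), and when each array was centred on its median (0.0875). That in hippocampus was lost without control replicate 2 (0.071) or R6 replicate 3 (0.081).

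In the other regions the R6 estimates were -0.48 in midbrain, -0.44 in thalamus, -0.40 in pons and medulla, -0.31 in striatum and -0.11 in cerebellum, none of which passed. The 3 thalamic arrays read 369, 320 and 361 at 0hr and 267, 258 and 236 at R6. The midbrain read 330, 279 and 278 and then 199, 226 and 198. All 3 R6 arrays were below all 3 controls in 6 of 7 regions, the exception being cerebellum, where they read 86.3, 86.6 and 90.2 against 90.1, 99.9 and 98.6. Over all probe sets, 0.0178% were below the controls at R6 in 6 or more regions.

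In the mean of the 7 regions Grm7 fell by 0.26 at R3 (SE 0.05, adjusted p = 0.00746, when 0.426% of all probe sets were called lower) and by 0.44 at R6 (SE 0.05, adjusted p = 0.000243, when 0.0155% were). The R6 value was lower in 7 of 7 regions and had the smallest p of the 45037 probe sets at that time. The 3 control values of this mean were 8.15, 8.04 and 8.13, and those at R6 were 7.67, 7.70 and 7.63, which did not overlap. The call at R3 was lost without R3 replicate 3 (adjusted p = 0.0513) or without replicate number 1, 2 or 3 throughout (0.256, 0.0759 and 0.26), and that at R6 without replicate number 1 or 3 throughout (0.347 and 0.105).

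At R1 the Grm7 estimates differed in sign between regions, but an F-test of the change between regions did not pass (adjusted p = 0.741). The R1 arrays read 292, 324 and 239 in cortex and 284, 318 and 298 in hippocampus, all below the controls there, with differences of -0.26 and -0.17 that did not pass (adjusted p = 0.358 and 0.52). In the other 5 regions the R1 estimates were 0.03 to 0.12, so that the mean of the 7 regions was -0.01 from 0hr. In that mean R6 was lower than R1 (log2 difference -0.43, adjusted p = 6.72e-06, when 6.27% of probe sets were called). Between R1 and R6 3 other genes passed, Cacng4 (-0.25, adjusted p = 0.0205), Grik1 (-0.28, adjusted p = 0.00134) and Slc1a1 (-0.13, adjusted p = 0.0234). From R3 to R6 the difference was -0.18 (adjusted p = 0.082, when 0.504% were called). From R6 to R12 Grm7 rose by 0.45 (adjusted p = 6.27e-05, when 0.451% were called), to 0.01 from 0hr at R12 and 0.02 at R24. These comparisons between times were added after the values were seen. Whether the size of the change at R6 differed between regions was tested as an interaction. Grm7 had an adjusted p of 0.625, and 0 of 35 genes passed at any of the 7 times, when at most 0.0933% of all probe sets did.

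**Figure D5:**
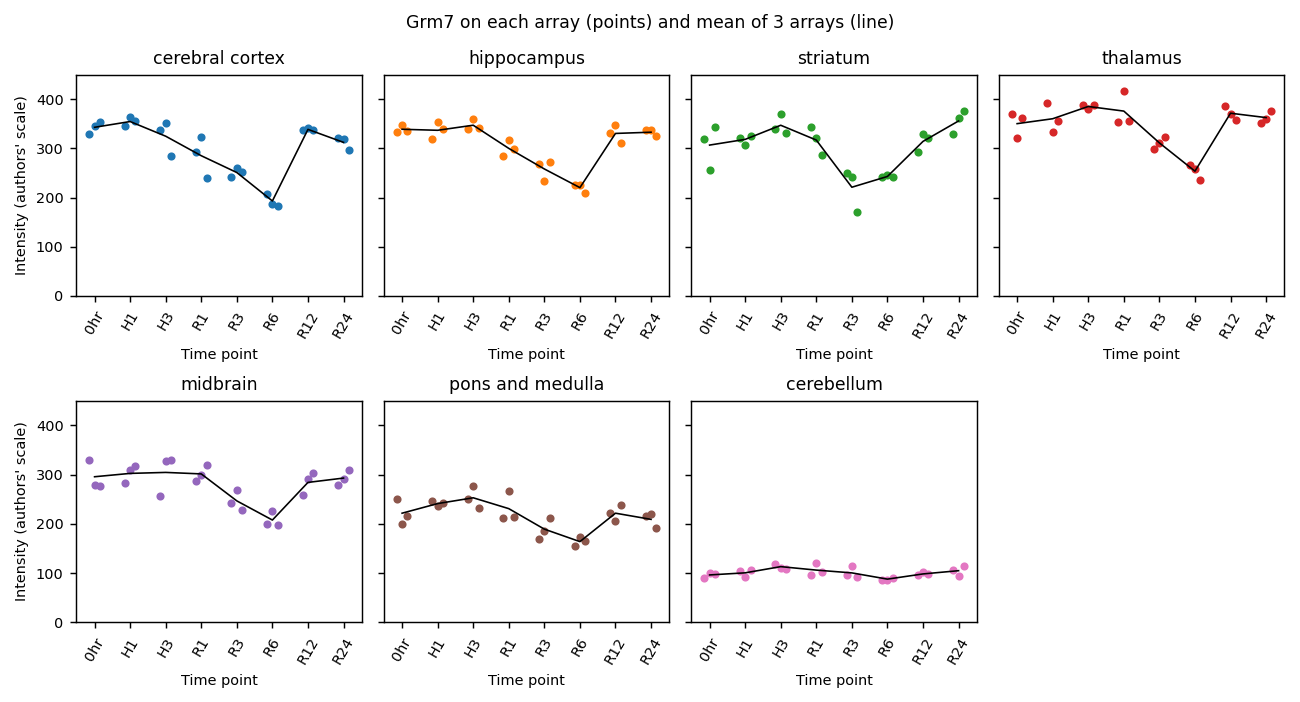
Grm7 intensity (vertical axes, authors' linear scale from 0) on each array (points) and mean of 3 arrays (line) in the 7 regions at 0hr, 1 and 3 h of hypoxia (H1, H3) and 1 to 24 h of reoxygenation (R1 to R24). The R6 points lie below the 0hr points in every region but the cerebellum and the R12 points lie back near them.

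The lower level was seen with 1 of 3 probe sets that name Grm7. The other pair had mean intensities of 36.9 and 11.7 over all arrays against 265 for the one used, and gave 0.10 and -0.07 at R6 in the mean of the regions (adjusted p = 0.896 and 0.947). Which transcripts each probe set reads was not tested. The mean of the regions at R6 for 5 neuronal markers changed by -0.01 to 0.06, and none passed. Their summed intensity was 12600 to 12860 at R6 and 12290 to 12810 at 0hr. All 5 microglial markers had estimates below 0 at R6, from -0.38 to -0.11, and 1 passed, Tmem119 (log2 difference -0.32, adjusted p = 0.0337). Their summed intensity was 1337 to 1396 at R6 against 1570 to 1628 at 0hr. At R3 Tmem119 was lower too (log2 difference -0.40, adjusted p = 0.000918), the other 4 ran from -0.18 to 0.05 without passing, and the sum was 1373 to 1761. The median of the 5 microglial markers at R3 was between -0.30 and -0.09 in 6 regions and 0.01 in cerebellum. At R6 this median was below 0 in every region, from -0.285 in striatum to -0.167 in pons and medulla. It was -0.173 in cerebellum, where Grm7 changed least at R6, and -0.202 in cortex, where Grm7 changed most. The 5 neuronal markers at R3 ran from 0.00 to 0.10, and none passed. The part of microglial RNA in the value of Grm7 was not tested.

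Since Grm7 was the gene called against 0hr, the letters before its start are shown. They were read from RefSeq's annotation of GRCm38.p6 at chr6:110645262-110645511 on the plus strand, the 250 bases before the more upstream of 2 starts listed. Capitals mark GCGTG on either strand, a form of the core to which hypoxia-inducible factors bind.

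Grm7: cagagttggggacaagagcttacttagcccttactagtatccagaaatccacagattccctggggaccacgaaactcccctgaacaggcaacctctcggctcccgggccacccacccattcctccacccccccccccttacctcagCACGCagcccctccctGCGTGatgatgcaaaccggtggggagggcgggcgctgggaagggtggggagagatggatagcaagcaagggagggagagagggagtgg

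The window held 2 matches to GCGTG, and 28.2% of the 32851 listed windows of the same length hold any match to it. It held 0 matches to ACGTG, the other form of the core, which 16.6% hold, 0 to CACGTG, which contains ACGTG and which 6.02% hold, and 0 to TGACG, the start of a cyclic AMP response element, which 17.8% hold. A match is a run of letters and not a binding site.

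Without a replicate block and over all probe sets, each role had genes that were called at no single time against 0hr. In the mean of the 7 regions at R6, Gria1 differed by 0.09 (adjusted p = 0.79), Cacng2 by 0.00 (0.999), Grin2b by -0.12 (0.676), Grik1 by -0.11 (0.647), Grid1 by -0.17 (0.174), Grm8 by -0.25 (0.137), Slc1a1 by -0.04 (0.856) and Slc17a7 by 0.01 (0.994). After Grm7, Grm8 had the lowest estimate. The R6 estimate was below 0 in all 7 regions for 9 of 35 genes (25.7%, against 2.72% of all probe sets), namely Cacng4, Cnih3, Grin2b, Grin2d, Grik2, Grid1, Grm5, Grm7 and Grm8. The regions of a time share mice, so these 7 estimates are not independent, and of the 9 genes Grm7 alone passed at R6.

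An F-test over the 7 times together, added after the values were seen, passed for 7 of 35 genes in the mean of the regions, when 11.7% of all probe sets passed. They were Gria4, Cacng4, Grin3a, Grik1, Grm7, Grm8 and Slc1a1. Apart from Grm7 their estimates against 0hr stayed between -0.25 and 0.17. Grik1 was at 0.17 at H3 and at R1 (adjusted p = 0.0734 and 0.055, or 0.0413 and 0.0313 with the replicate block) and at -0.11 at R6, and Gria4 at 0.09 at H3 and -0.12 at R3.

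Beside Grm7, 3 genes had estimates over 1.5-fold within a region, and none passed. Cacng8 in cortex stood 0.64 to 0.70 above 0hr at R3, R6 and R12, where the 3 controls spanned 7.04 to 40.5. Slc1a6 in striatum was 0.82 above at R1, with every array of both groups under 32. Slc17a6 in striatum was -0.61 at R24, against controls that included the array at 201.

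The other synaptic genes were called in 4 cases in the mean of the regions, all downward. Among scaffolds and organisers 1 of 27 was called at H3 and 2 of 27 at R1, when 3.36% and 5.48% of all probe sets were. Among other receptors and transporters 1 of 10 was called at R3, when 0.782% were. Of all probe sets called, 973 of 1515 at H3 and 1724 of 2467 at R1 were lower as well. Counts this small describe single genes and not the lists. Lrrtm1, a postsynaptic adhesion protein that binds neurexins, fell by 0.23 at H3 (SE 0.05, adjusted p = 0.0118, when 2.16% of probe sets were called lower) and by 0.21 at R1 (adjusted p = 0.0163, when 3.83% were). Shank3, a scaffold of the postsynaptic density, fell by 0.25 at R1 (adjusted p = 0.0181), and Shisa9, an auxiliary AMPA receptor protein, fell by 0.20 at R3 (adjusted p = 0.0418, when 0.426% were). Within regions Lrrtm1 was lower in striatum at R1 (log2 difference -0.58, adjusted p = 0.0237, when 0.426% were called) and in thalamus at H3 (log2 difference -0.43, adjusted p = 0.0473, when 0.187% were). None of the 7 analysed genes of glutamate and glutamine metabolism was called at any time in the mean of the regions, with estimates from -0.23 to 0.14.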

How the data were processed

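Total RNA from dissected pieces was hybridised to Affymetrix mouse arrays, 1 array each, and the submitters' processing notes name GCOS 1.3. The deposited table holds linear intensity values, 1 per probe set and array. Every array had the same mean after 2% of the values were trimmed at each end, 125, so the authors' values were scaled; the methods name GCRMA, which these linear, equally scaled values do not show. The 64 control probe sets were left out and log2(intensity + 16) was computed. Probe sets were named from the platform annotation: 34945 named 1 gene, 932 several and 9160 none.

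Limma 3.58.1 in R 4.3.3 fitted 45037 probe sets, with Benjamini-Hochberg adjustment over all of them and a threshold of 0.05, for (i) region means in 21 control arrays, (ii) each time against 0hr within a region, (iii) the same in the mean of the 7 regions, taken over arrays with 1 replicate number, and (iv) changes differing between regions. The fits were tested on simulated data. In (i) and (iv) arrays of 1 mouse count as independent, and since the labels do not tie replicates to mice, p-values measure the spread between arrays.

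The members and gene lists were chosen with earlier results of these data known. All members could be named; for each region the largest passing differences, for each role the widest and narrowest gap, and every gene called against 0hr, were described. Other pathway genes were named where called, up to 4. Alternatives were other added constants, scalings, filters, test settings, probe sets, replicate blocks, the methods' t-test and arrays left out. No interval covers hybridisation differences between probe sets, and 3 arrays a group limit precision.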

Additional observations from a re-analysis of the deposited data

How the results depend on the processing

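Over 32 alternatives 20 to 34 genes passed between regions; the lowest count came from second probe sets (22 genes), which gave 42 regional values above the others and 46 below, and leaving out arrays or replicate numbers gave 31 to 34, with 64 to 78 above and 56 to 82 below. The 2 calls within regions became 1 with median centring, 0 with second probe sets, 0 with the methods' t-test adjusted alone and 7 with that test after analysis of variance, all for Grm7, of which 2 were at least 1.5-fold; leaving out arrays or replicate numbers gave 0 to 3. In the mean of the regions the 2 calls became 5 among probe sets above the median level (Grik1 higher at H3 and R1, Grm8 lower at R1, and Grm7), 0 with second probe sets, 0 at 1.5-fold or more, and 0 to 3 with values left out. The second Grm7 probe set had the opposite sign, 0.11 in cortex and 0.0793 in hippocampus at R6 and 0.21 at R3 and 0.10 at R6 in the mean. No alternative gave a change that differed between regions. The causes were not tested.

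With the replicate number as a block, the mean of the regions had 4 calls (Grik1 at H3 and R1, and Grm7), and 11 genes passed the F-test over time in place of 7. Calls within regions went from 2 to 3, regional values above the others to 79 and below to 81, while 32 genes still passed between regions and both Grm7 calls at R6 stayed. Replicate numbers did not pair the arrays throughout: arrays with the same number in a region correlated at -0.221 to 0.428 (median 0.141) in their deviations from group means, and those with the same number in other regions of a time at -0.231 to 0.37 (median 0.0745, against -0.0388 for other numbers, and 0.146 in controls). Even so, 157 arrays correlated best with their own number over the other times of their region and 141 over the other regions of their time, a hint from the data that numbers may be shared.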
